A study of Mus musculus with 8 samples.

Results

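The p53 target genes described here are 10 genes that the transcription factor p53 is known to switch on: Cdkn1a, Mdm2, Ccng1, Trp53inp1, Bax, Phlda3, Eda2r, Zmat3, Perp and Plk2. They were taken by symbol from 24421 genes counted in mouse embryonic stem cells, and all 10 were found in both count tables and passed the filter on low counts in both comparisons. Gene expression was measured by sequencing polyA RNA from 8 libraries in 4 groups of 2, all from cells kept in 2i/LIF, a medium that holds stem cells in a naive pluripotent state. In the Ubc9 comparison, v6.5 cells treated with doxycycline for 72 hours to deplete Ubc9 were set against control cells of that line, labelled WT. In the H1 comparison, cells with a triple knockout of the linker histones H1.2, H1.3 and H1.4 (H1 TKO) were set against control cells, also labelled WT, and both lines came from an earlier publication. The labels do not say how doxycycline removes Ubc9, whether the Ubc9 controls received doxycycline, or how many clones the H1 lines stand for. Nor do they say if a group's libraries are separate cultures, so each p-value measures only the spread between these libraries, which may be technical.

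p53 is held low in unstressed cells by Mdm2, a ubiquitin ligase that p53 itself switches on, so that the pair forms a feedback loop. When p53 is stabilised, it binds response elements made of adjoining decamers and raises genes that stop the cell cycle, repair DNA or start cell death. Ubc9 conjugates SUMO, a ubiquitin-like modifier, to its substrates, and p53 and Mdm2 are both known to be among these. Embryonic stem cells hold abundant p53, which after DNA damage is known to promote their differentiation.

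In GENCODE M21 (build GRCm38) the plus strand holds Cdkn1a at chr17:29090976-29100727, Trp53inp1 at chr4:11156431-11174379, Phlda3 at chr1:135766119-135769136, Perp at chr10:18845020-18857073 and Plk2 at chr13:110395046-110400844. The minus strand holds Mdm2 at chr10:117688875-117710758, Ccng1 at chr11:40748552-40755311, Bax at chr7:45461697-45466898, Eda2r at chrX:97333840-97377216 and Zmat3 at chr3:32334792-32366014. All 10 are protein-coding genes.

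The p53 decamer and its pairs were looked up in RefSeq promoter windows of build GRCm38.p6, which run from 250 bases before to 50 bases after a gene's start. Windows were found for 7 of the 10 genes, and Trp53inp1, Zmat3 and Perp had no entry. The stretches before the start are shown for Cdkn1a, which fell after Ubc9 depletion, for Ccng1, which rose in both comparisons, and for Plk2, which changed furthest, 5′ to 3′ on the gene's strand, with capitals for a pair of adjoining p53 decamers with at most 1 mismatch in all. They lie at chr17:29090729-29090975 on the plus strand, chr11:40755312-40755536 on the minus strand and chr13:110394794-110395043 on the plus strand, and bases inside the annotated gene are left off.
Cdkn1a: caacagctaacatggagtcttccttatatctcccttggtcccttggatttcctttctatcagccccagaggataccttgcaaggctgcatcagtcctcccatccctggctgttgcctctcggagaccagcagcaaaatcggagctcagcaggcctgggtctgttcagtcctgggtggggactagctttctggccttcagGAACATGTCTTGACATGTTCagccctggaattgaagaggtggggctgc
Ccng1: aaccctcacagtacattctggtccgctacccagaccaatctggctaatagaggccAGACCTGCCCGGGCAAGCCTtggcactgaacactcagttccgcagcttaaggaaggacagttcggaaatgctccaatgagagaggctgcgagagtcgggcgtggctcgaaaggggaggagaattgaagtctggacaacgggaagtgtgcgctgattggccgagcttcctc
Plk2: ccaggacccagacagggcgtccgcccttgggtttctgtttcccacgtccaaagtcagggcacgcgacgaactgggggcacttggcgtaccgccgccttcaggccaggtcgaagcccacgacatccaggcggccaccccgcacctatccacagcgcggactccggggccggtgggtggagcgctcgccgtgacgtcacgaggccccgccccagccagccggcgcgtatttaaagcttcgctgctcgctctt

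The Cdkn1a pair, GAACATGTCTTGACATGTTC, begins 51 bases before the upstream of the gene's 2 RefSeq starts, with a further decamer beginning 73 bases before it, and the window of the downstream start, at chr17:29093519-29093818, held no decamer. The Ccng1 pair, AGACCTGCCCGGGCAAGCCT, begins 195 bases before the start. A single decamer without mismatch was found for Mdm2, GAACTTGCCT, 186 bases before its start, and for Bax, AGGCAAGCTT, 201 bases before its start. The Phlda3, Eda2r and Plk2 windows held none, which says only that these letters are not in these windows. The decamer pattern reads the same on both strands and was present in 8.36% of 32851 promoter windows, and the pair was present in 29 of them, or 0.0883%. Among the other p53 pathway genes, Gtse1 and Rps27l had a pair in their windows. A match describes the sequence and is not evidence of binding.

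The libraries carried between 44441713 and 102780141 counts, and the p53 target genes had between 455 and 65581 counts each in every library. Values of some other genes named below rest on few counts, and their levels are given beside them. Hist1h1c, Hist1h1d and Hist1h1e had no counts in either H1 TKO library, where 3 counts would be 0.0438 and 0.0675 CPM (counts per 1000000, on library sizes scaled by TMM), and stood between 1.64 and 4.48 CPM in the H1 controls. Ubc9-depleted library 1 stood apart, where 23462 genes had counts and the remaining Ubc9 libraries had 18584 to 19591, and so did the H1 controls, whose log2 ratio to each other had an SD over genes of 0.49 against 0.22 between the H1 TKO libraries (1 CPM added). Results that rest on these libraries are therefore given without them as well. Summed over 10 markers of embryonic stem cells, the Ubc9-depleted libraries held 4416 and 4538 CPM and their controls 4624 and 4763 CPM. The H1 TKO libraries held 6456 and 6837 CPM and the H1 controls 4888 and 5669 CPM. The labelled cell type was matched by these markers in every group, but the sums did not overlap between groups in either table. Fgf4 fell in both comparisons (log2 fold change -1.09 and -0.996, adjusted p = 1.38e-07 and 0.0122, edgeR). Utf1 rose after Ubc9 depletion (0.479, adjusted p = 0.00305, edgeR), and the other markers did not pass. The libraries of the comparisons were made with different kits, so levels are not compared between the tables.

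After Ubc9 depletion the p53 target genes moved in both directions, with fold changes between 0.657 (Cdkn1a) and 1.46 (Plk2). Plk2, Ccng1 and Perp rose, Cdkn1a fell, and Mdm2, Trp53inp1, Bax, Phlda3, Eda2r and Zmat3 did not pass the test. Over all 16499 genes tested, 21.1% rose and 15.0% fell (edgeR quasi-likelihood test, Benjamini-Hochberg adjusted p under 0.05), so 3 of 10 higher and 1 of 10 lower were near the background share. The median log2 fold change of the 10 genes was 0.17, against 0.06 for all genes tested. When libraries were scaled by their totals alone, these medians were 0.36 and 0.25, and 6 of the 10 genes rose and 1 fell. Of all genes tested, 24.1% rose and 6.57% fell in that scaling. In a fit of all 8 libraries, which share 1 estimate of the spread, 0 of the 10 genes passed in this comparison. Adjusted p ran from 0.053 for Plk2 and 0.080 for Cdkn1a upwards (edgeR), and 6.48% of all genes rose and 2.85% fell.

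Cdkn1a encodes p21, the inhibitor of cyclin-dependent kinases through which p53 stops the cell cycle. It stood at 74.5 and 79.8 CPM in the Ubc9-depleted libraries and at 116 and 119 CPM in the controls. Both depleted libraries were low, and the gap between the groups was wider than the gap within either. Its log2 fold change was -0.61 ± 0.12 (SE, n = 2 libraries per group here and below; adjusted p = 1.9e-04, edgeR), which is 0.657 times the control level. Cdkn1a kept this call whichever of the 4 libraries was omitted, with values between -0.73 and -0.56. Annotated exons of AC167363.2, on the other strand, overlap 273 exonic bases of Cdkn1a, or 7.68%, and the strand setting of the counting is not given in the sources used here.

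Mdm2 and Ccng1 act in the feedback on p53: Mdm2 marks p53 for destruction, and cyclin G1, the product of Ccng1, recruits a phosphatase that activates Mdm2. Mdm2 stood at 273 and 329 CPM in the Ubc9-depleted libraries and at 253 and 268 CPM in the controls. Depleted library 1 was close to the upper control and library 2 was the highest, and the log2 fold change of 0.21 ± 0.13 did not pass (adjusted p = 0.21, edgeR). It was 0.34 without depleted library 1 and -0.01 without depleted library 2, so the value of Mdm2 rested on 1 library. Ccng1, the most abundant of the 10 genes per kilobase in this table, stood at 655 and 663 CPM in the depleted libraries and at 491 and 504 CPM in the controls. Both depleted libraries were above both controls, and Ccng1 rose by 0.41 ± 0.13 on the log2 scale (adjusted p = 0.015, edgeR). The call was lost without control library 1 (adjusted p = 0.63) or control library 2 (adjusted p = 0.634, edgeR), when the spread came from the depleted pair alone, and with RLE factors (adjusted p = 0.052) or no filter (adjusted p = 0.134).

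Plk2, a polo-like kinase of the stress response, rose furthest of the 10 genes after Ubc9 depletion. It stood at 109 and 117 CPM in the depleted libraries and at 79.7 and 75.5 CPM in the controls, without overlap. The log2 fold change was 0.54 ± 0.12 (adjusted p = 6.8e-04, edgeR), and leaving out control library 1 or 2 gave 0.56 and 0.47, with adjusted p = 0.113 and 0.235 (edgeR). Zmat3, an RNA-binding protein that controls splicing and mRNA stability, stood at 99.0 and 115 CPM in the depleted libraries and at 91.7 and 103 CPM in the controls. These ranges overlapped, and the log2 fold change was 0.14 ± 0.12 (adjusted p = 0.40, edgeR).

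Perp, a membrane protein of desmosomes that takes part in p53-dependent apoptosis, stood at 18.9 and 19.4 CPM in the Ubc9-depleted libraries and at 13.6 and 16.3 CPM in the controls. Perp rose by 0.36 ± 0.11 on the log2 scale (adjusted p = 0.014, edgeR), and the call was lost without depleted library 2 (adjusted p = 0.10) or control library 1 (adjusted p = 0.504, edgeR), and in DESeq2 (adjusted p = 0.125). Eda2r, a receptor of the tumour necrosis factor family, stood at 103 and 103 CPM in the depleted libraries and at 79.6 and 91.6 CPM in the controls. The groups did not overlap, but its log2 fold change of 0.27 ± 0.12 did not pass (adjusted p = 0.079, edgeR).

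Bax, which opens the outer mitochondrial membrane, stood at 45.4 and 46.3 CPM in the Ubc9-depleted libraries, between the controls at 50.9 and 44.1 CPM. Phlda3, an inhibitor of the survival kinase Akt, stood at 32.2 and 28.4 CPM in the depleted libraries and at 31.0 and 25.2 CPM in the controls. Trp53inp1, a cofactor that strengthens p53 and acts in autophagy, stood at 458 and 483 CPM in the depleted libraries and at 415 and 507 CPM in the controls. For these 3 genes the groups overlapped, and the log2 fold changes were -0.05 ± 0.11 for Bax, 0.11 ± 0.12 for Phlda3 and 0.03 ± 0.13 for Trp53inp1. Of the 10 genes, 5 lay wholly above and 1 wholly below the controls, where 36.7% and 32.2% of all genes tested did so. Gm45808, on the same strand, shares 192 exonic bases of Bax, or 12.2%.

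**Figure D1:**
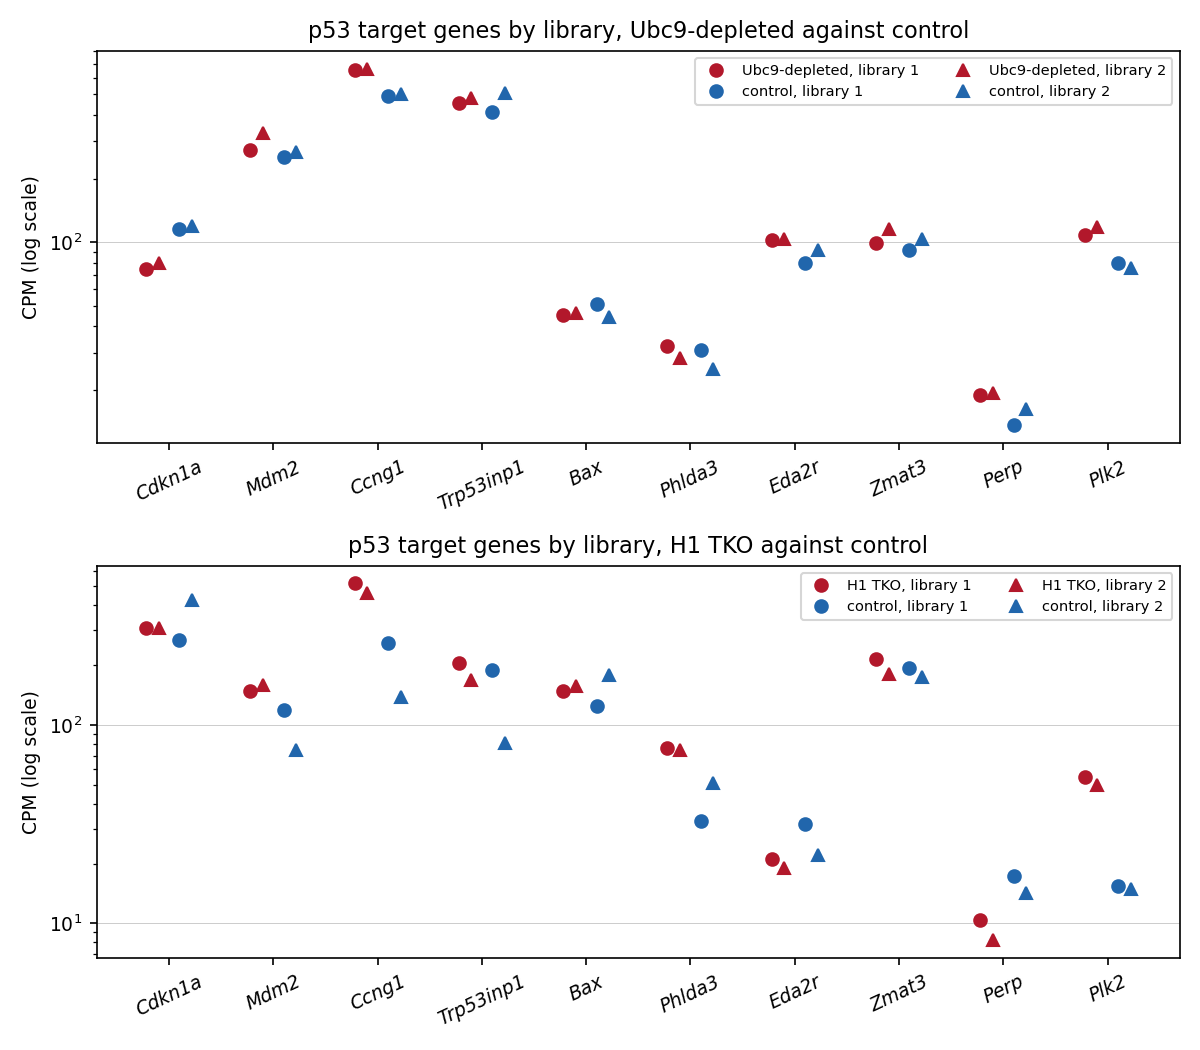
Level of each of the 10 p53 target genes in CPM (log axis) in every library, with the Ubc9 table in the upper panel and the H1 table in the lower one; circles are library 1, triangles library 2, red the depleted or knockout cells and blue their controls. Cdkn1a of the Ubc9-depleted libraries (74.5 and 79.8 CPM) lies below both controls, and Plk2 of the H1 TKO libraries (54.7 and 49.6 CPM) lies far above controls of 15.5 and 14.9 CPM.

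In H1 TKO cells the p53 target genes again moved in both directions, with larger differences and a wider spread. Plk2 and Ccng1 rose and no gene of the 10 fell (edgeR quasi-likelihood test, adjusted p under 0.05). At an unadjusted p under 0.05 edgeR had 4 higher and 1 lower, where 15.9% and 16.4% of all genes were, and DESeq2 called 3 higher and 1 lower, where it called 11.5% and 11.7% of all genes. Over all 14800 genes tested, 8.59% rose and 8.43% fell, so neither 2 of 10 higher nor 0 of 10 lower was far from the background share. The call of Ccng1 was lost with scaling by library totals. The median log2 fold change of the 10 genes was 0.28, against -0.02 for all genes tested.

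Plk2 stood at 54.7 and 49.6 CPM in the H1 TKO libraries and at 15.5 and 14.9 CPM in the H1 controls. The libraries of each group lay close together, and the groups were far apart. Plk2 rose by 1.78 ± 0.21 on the log2 scale, or 3.43-fold (adjusted p = 0.0020, edgeR), the largest change of any of the 10 genes in either comparison. Plk2 kept the call whichever of the 4 libraries was omitted, with values between 1.69 and 1.85.

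Ccng1 stood at 516 and 460 CPM in the H1 TKO libraries and at 258 and 138 CPM in the H1 controls. Both knockout libraries were above both controls, but the controls differed from each other by 1.87-fold. The gene rose by 1.30 ± 0.30 on the log2 scale (adjusted p = 0.027, edgeR), which was 0.92 without H1 control library 2, 1.83 without H1 control library 1, and 1.19 with adjusted p = 0.0875 (edgeR) without H1 TKO library 1. With scaling by totals it was 1.20 (adjusted p = 0.0535, edgeR). Mdm2 stood at 149 and 158 CPM in the knockout libraries and at 118 and 74.5 CPM in the controls. The groups did not overlap, yet the log2 fold change of 0.67 ± 0.25 did not pass (adjusted p = 0.115, edgeR).

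Phlda3 stood at 76.2 and 74.4 CPM in the H1 TKO libraries and at 32.8 and 51.0 CPM in the H1 controls, with a log2 fold change of 0.85 ± 0.25 (adjusted p = 0.061, edgeR). Perp stood at 10.4 and 8.25 CPM in the knockout libraries and at 17.3 and 14.3 CPM in the controls, with a log2 fold change of -0.76 ± 0.25 (adjusted p = 0.078, edgeR). In both genes the groups did not overlap, and the calls turned on the method: DESeq2 called Phlda3 higher (adjusted p = 0.0121) and Perp lower (adjusted p = 0.0498). Eda2r, at 21.2 and 19.0 CPM in the knockout libraries and at 31.7 and 22.0 CPM in the controls, had a log2 fold change of -0.42 ± 0.25 (adjusted p = 0.285, edgeR).

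Cdkn1a stood at 308 and 306 CPM in the H1 TKO libraries, between the H1 controls at 269 and 427 CPM. Its log2 fold change of -0.18 ± 0.25 (adjusted p = 0.66, edgeR) was -0.47 without H1 control library 1 (adjusted p = 2.6e-05) and 0.19 without H1 control library 2 (adjusted p = 0.13, edgeR), so the direction of Cdkn1a depended on which control was kept. Trp53inp1 showed the widest gap between the controls, with 204 and 168 CPM in the knockout libraries and 189 and 81.2 CPM in the controls. The gap between the controls of Trp53inp1, as a log2 ratio with 1 CPM added, was wider than in 99.1% of the genes tested. Bax lay between the controls, with 149 and 157 CPM in the knockout libraries and 125 and 179 CPM in the controls, and Zmat3 overlapped them, with 214 and 182 against 194 and 173 CPM. The log2 fold changes were 0.46 ± 0.37 for Trp53inp1, 0.00 ± 0.22 for Bax and 0.11 ± 0.19 for Zmat3.

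Of the 10 genes, 4 lay wholly above and 2 wholly below the H1 controls, where 31.4% and 30.6% of all genes tested did so. Without H1 control library 1, 5 of the genes were called higher (Mdm2, Ccng1, Trp53inp1, Phlda3 and Plk2) and 2 lower (Cdkn1a and Perp), where 23.4% of all genes were called higher and 22.8% lower. Without H1 control library 2, 5 were also called higher (Mdm2, Ccng1, Bax, Phlda3 and Plk2) and 2 lower (Eda2r and Perp), where 25.8% of all genes were called higher and 26.1% lower. In these fits the spread came from the H1 TKO pair alone, in which Perp differed most of the 10 genes, by 1.26-fold.

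**Figure D2:**
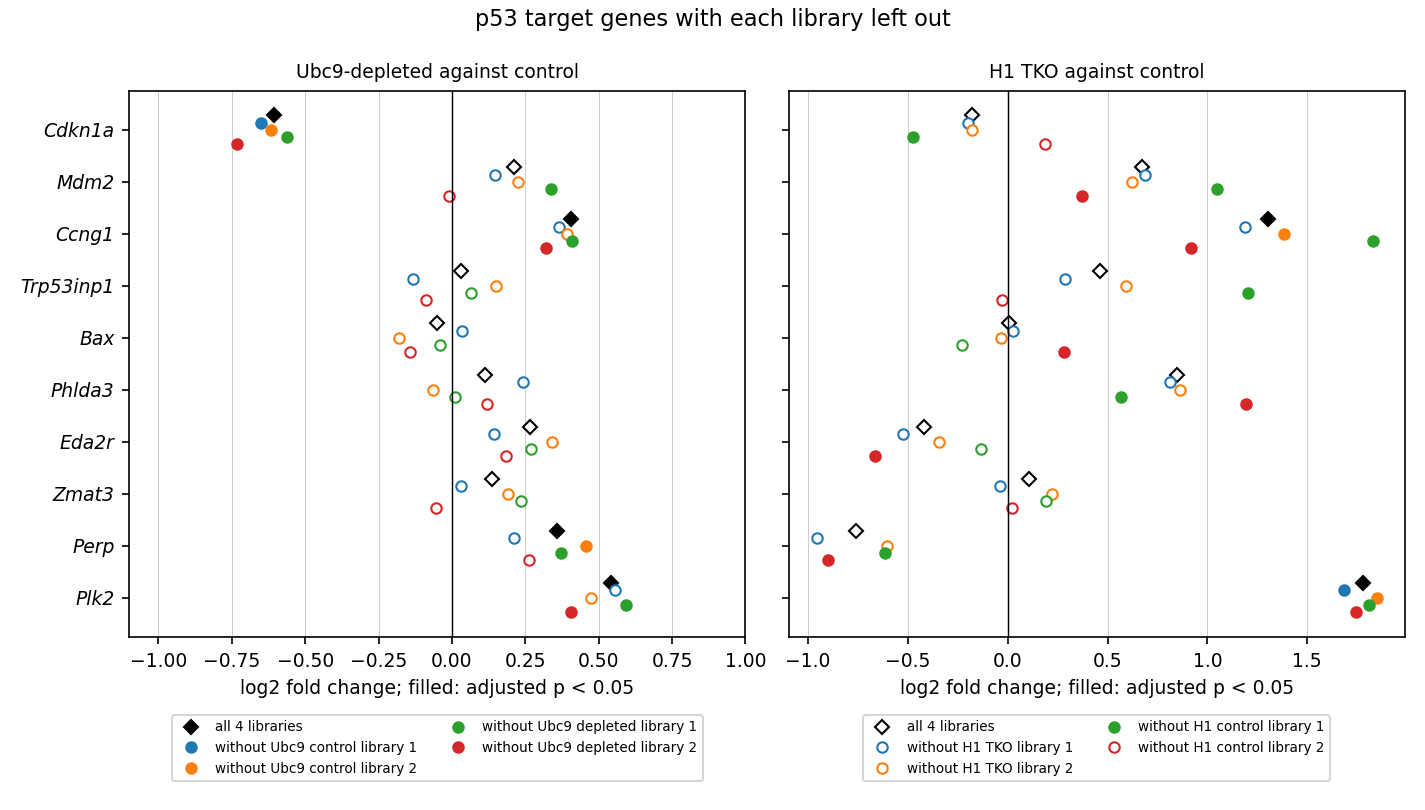
Log2 fold change of each p53 target gene with all 4 libraries (diamonds) and with each library left out in turn (circles), for the Ubc9 comparison on the left and the H1 comparison on the right; filled symbols have an edgeR adjusted p under 0.05, and legend symbols are drawn as for Cdkn1a. Plk2 stays between 1.69 and 1.85 in the H1 comparison, while Trp53inp1 runs from -0.03 to 1.20.

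The genes were ordered by level per kilobase of exonic length within each set of controls. The orders are not compared between the tables, whose kits and lines differ. In the Ubc9 controls Ccng1 was highest at 142 CPM per kilobase, followed by Trp53inp1 at 71.2, Mdm2 at 51.2, Cdkn1a at 33.0 and Bax at 30.1. Phlda3 at 18.0, Plk2 at 17.3, Eda2r at 14.5, Zmat3 at 8.52 and Perp at 7.66 CPM per kilobase were lower. The libraries overlapped for the neighbours Phlda3 and Plk2 and for Zmat3 and Perp, which therefore have no firm order. In the H1 controls Cdkn1a at 98.0 and Bax at 96.6 CPM per kilobase were highest, overlapped and were followed by Ccng1 at 56.3. Phlda3 at 26.9, Trp53inp1 at 20.9, Mdm2 at 19.0 and Zmat3 at 16.1 CPM per kilobase overlapped each with the next. Perp at 8.08, Eda2r at 4.56 and Plk2 at 3.38 CPM per kilobase were lowest and did not overlap. The lengths are those of all annotated exons in GENCODE M21, which may not be the annotation used for counting.

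Whether the genes responded differently to Ubc9 depletion and to loss of H1 was tested in 1 fit of all 8 libraries. Of all 16974 genes in that fit, 8.08% had a higher and 6.43% a lower log2 fold change in the Ubc9 comparison (edgeR quasi-likelihood test, adjusted p under 0.05). Of the 10 genes, Perp was higher and Plk2 lower. Perp had a log2 fold change of 0.36 after Ubc9 depletion and -0.76 in H1 TKO cells, and the difference was 1.11 ± 0.27 (adjusted p = 0.0201, edgeR). That call was lost in 4 of the 8 fits without a library, those without either Ubc9-depleted library, Ubc9 control library 1 or H1 TKO library 2, with adjusted p between 0.076 and 0.102 (edgeR). Plk2 had 0.54 and 1.78, and the difference was -1.25 ± 0.22 (adjusted p = 0.0034, edgeR), which held with each library left out.

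For the other 8 genes the difference did not pass. It was -0.90 ± 0.37 for Ccng1 (adjusted p = 0.125), -0.76 ± 0.29 for Phlda3 (adjusted p = 0.103) and 0.68 ± 0.28 for Eda2r (adjusted p = 0.131, edgeR). Cdkn1a, which fell after Ubc9 depletion and did not pass in H1 TKO cells, had a difference of -0.45 ± 0.28 (adjusted p = 0.319, edgeR), so its responses were not shown to differ. Without H1 control library 2 the difference for Cdkn1a was -0.81 (adjusted p = 0.0019, edgeR). In DESeq2 the difference also passed for Ccng1 (adjusted p = 0.0227) and Phlda3 (adjusted p = 0.0343), and without H1 control library 1 it was lower for 5 of the 10 genes, where 13.6% of all genes were lower. The values were -0.47 ± 0.32 for Mdm2, -0.43 ± 0.46 for Trp53inp1, -0.08 ± 0.26 for Bax and 0.02 ± 0.24 for Zmat3.

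**Figure D3:**
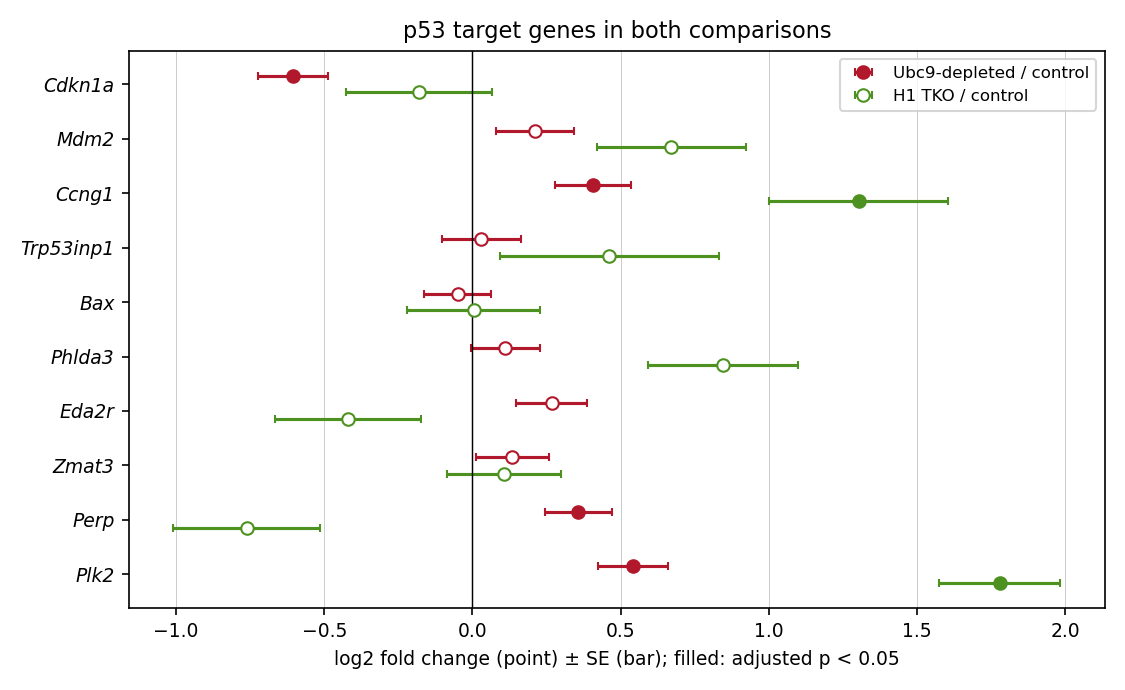
Log2 fold change (points) with its SE (bars) of the 10 p53 target genes after Ubc9 depletion (red) and in H1 TKO cells (green), with filled points for an edgeR adjusted p under 0.05. Plk2 (0.54 and 1.78) and Ccng1 (0.41 and 1.30) are filled in both comparisons, and Perp lies on opposite sides of 0 (0.36 and -0.76).

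Trp53, the gene of p53 itself, stood at 137 and 142 CPM in the Ubc9-depleted libraries and at 186 and 203 CPM in the controls. Both depleted libraries were low, and Trp53 fell by 0.48 ± 0.12 on the log2 scale (adjusted p = 0.0031, edgeR). The call was lost without Ubc9 control library 1 (adjusted p = 0.144) or 2 (adjusted p = 0.331, edgeR). In the H1 table Trp53 stood at 501 and 470 CPM in the knockout libraries and at 255 and 383 CPM in the controls, without overlap, and its log2 fold change of 0.60 ± 0.24 did not pass (adjusted p = 0.125, edgeR). Without H1 control library 1 or 2 it passed, at 0.34 and 0.93. The difference between the comparisons was -1.11 ± 0.27 for Trp53 (adjusted p = 0.0205, edgeR), and the call was lost on leaving out Ubc9-depleted library 1 (adjusted p = 0.0859), the second Ubc9 control (adjusted p = 0.0507) or H1 TKO library 1 (adjusted p = 0.0654) or 2 (adjusted p = 0.0513, edgeR).

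Of 24 regulators and relatives of p53, 2 rose and 9 fell after Ubc9 depletion, beside 21.1% and 15.0% of all genes tested, with a median log2 fold change of -0.26. In the fit of all 8 libraries 0 rose and 1 fell, where 6.48% and 2.85% of all genes did so. Ppp1r13l, which encodes the p53 inhibitor iASPP, fell by 0.71 ± 0.18 on the log2 scale. The checkpoint kinase gene Chek2 fell by 0.62 ± 0.12 and Aurka, a mitotic kinase that phosphorylates p53, by 0.51 ± 0.13. At most 1 of Ppp1r13l, Chek2 and Aurka kept its call in the fit of all 8 libraries. Mdm4, a partner of Mdm2 that also restrains p53, fell by 0.34 ± 0.13 (adjusted p = 0.044), and Usp7, which removes ubiquitin from p53 and Mdm2, fell by 0.34 ± 0.13 (adjusted p = 0.047, edgeR). Both calls were lost with RLE factors (adjusted p = 0.0572 and 0.0608). Cdkn2a, whose Arf product blocks Mdm2, had -0.29 ± 0.13 (adjusted p = 0.078, edgeR). The p53 relative Trp73 rose by 0.75 ± 0.22, a call lost in the fit of all 8 libraries and without either Ubc9 control library. Trp63, another relative, was called higher at 2.29 ± 0.86 only through Ubc9-depleted library 1, with 2.09 and 0.183 CPM in the depleted libraries and 0.278 and 0.185 CPM in the controls, and had a value of -0.34 without that library. More regulators fell without Ubc9-depleted library 2 and fewer without either Ubc9 control library, as among all genes tested. Most of the 9 lower calls thus rested on having both Ubc9 controls.

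In H1 TKO cells 2 of 23 regulators tested rose and 1 fell, beside 8.59% and 8.43% of all genes tested, with a median log2 fold change of -0.03. Trp73 rose by 1.59 ± 0.29 and Aurka by 0.67 ± 0.19, while Hipk2, a kinase that activates p53, fell by 2.29 ± 0.25, from 36.7 ± 6.68 to 7.52 ± 1.31 CPM (mean ± SD, adjusted p = 0.0018, edgeR). Mdm4 had a log2 fold change of -0.34 ± 0.35, Usp7 of -0.41 ± 0.23 and Cdkn2a of -0.17 ± 0.23, and these 3 did not pass. Mdm4 stood at 93.0 and 88.9 CPM in the knockout libraries, between controls of 160 and 70.5 CPM. Its direction therefore depended on which H1 control was kept. The difference between the comparisons was 2.25 ± 0.27 for Hipk2 (adjusted p = 4.0e-04) and -1.20 ± 0.23 for Aurka (adjusted p = 0.0069, edgeR). Without either H1 control library more regulators rose and more fell, and without either H1 TKO library fewer rose, as among all genes tested. Aurka lost its call on leaving out either H1 TKO library (adjusted p = 0.545 and 0.586), and Trp73 on leaving out the second (adjusted p = 0.0786, edgeR).

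Among 35 further p53 targets, 15 rose and 5 fell after depletion of Ubc9, beside 21.1% and 15.0% of all genes tested, with a median log2 fold change of 0.19. In the fit of all 8 libraries 3 rose and 2 fell, beside 6.48% and 2.85% of all genes. Those that rose furthest were Fas, a death receptor, by 2.88 ± 0.73 from 0.191 CPM, Tap1, a peptide transporter of antigen presentation, by 2.73 ± 0.26, and Dcxr, a xylulose reductase, by 1.04 ± 0.13 on the log2 scale. The apoptosis genes Pmaip1 and Bbc3, which encode Noxa and Puma, rose by 0.54 ± 0.12 and 0.46 ± 0.11 (adjusted p = 9.3e-04 and 0.0022, edgeR). Sfn, a 14-3-3 protein of the G2 checkpoint, fell by 0.84 ± 0.11, Trp53cor1, a long noncoding RNA beside Cdkn1a, by 0.76 ± 0.26 and Tigar, which lowers glycolysis, by 0.64 ± 0.12. Without either Ubc9 control library fewer of these targets rose and fewer fell, as among all genes tested. With scaling by library totals 24 rose and 3 fell, beside 24.1% and 6.57% of all genes tested. Leaving out Ubc9 control library 1 gave adjusted p of 0.337 for Pmaip1 and 0.0518 for Bbc3, and leaving out the other control 0.0978 and 0.0862. Bbc3 also lost its call on leaving out Ubc9-depleted library 1 (adjusted p = 0.0609, edgeR).

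In H1 TKO cells 7 of the same 35 targets rose and 6 fell, beside 8.59% and 8.43% of all genes tested, with a median log2 fold change of 0.37. Tap1 rose by 2.24 ± 0.29, Dcxr by 1.51 ± 0.34 and Gtse1, a mitotic protein that binds p53, by 1.22 ± 0.21 on the log2 scale. The H1 controls of Dcxr stood at 8.13 and 16.7 CPM, and its log2 fold change was 1.08 without H1 control library 1 and 2.11 without H1 control library 2. Trp53cor1 fell by 2.65 ± 0.32, from 9.23 ± 0.63 to 1.46 ± 0.39 CPM (mean ± SD; adjusted p = 0.0024, edgeR), Gadd45a, a growth arrest gene, by 1.63 ± 0.29, and Xpc, which recognises DNA damage, by 1.54 ± 0.26. Bbc3 and Pmaip1 had log2 fold changes of 0.85 ± 0.29 and 0.67 ± 0.40 and did not pass (adjusted p = 0.089 and 0.296, edgeR). Without either H1 TKO library fewer rose and fewer fell, and without either H1 control library more did so, as among all genes tested. The calls lost were those of Gtse1 on leaving out H1 TKO library 1 or 2 (adjusted p = 0.0761 and 0.124), Gadd45a on leaving out library 2 (adjusted p = 0.0531) and Xpc on leaving out library 1 (adjusted p = 0.0782, edgeR), among the 6 named. The difference between the comparisons passed for Gadd45a (2.63 ± 0.30, adjusted p = 2.8e-04), Xpc (1.69 ± 0.24, adjusted p = 0.0012), Trp53cor1 (1.86 ± 0.41, adjusted p = 0.012) and Gtse1 (-1.12 ± 0.24, adjusted p = 0.012, edgeR).

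A list of 18 cell-cycle genes holds those that p53 is known to lower through p21 and the DREAM repressor complex. After Ubc9 depletion, where Cdkn1a fell, 10 of 18 fell and 0 rose by edgeR's adjusted p, beside 15.0% and 21.1% of all genes tested, with 13 lower and 0 higher at an unadjusted p under 0.05 and 13 and 0 in DESeq2. In the fit of all 8 libraries 0 fell and 0 rose, beside 2.85% and 6.48% of all genes. Their median log2 fold change was -0.34, against 0.06 for all genes tested. Cenpf fell by 0.54 ± 0.13, Kif23 by 0.51 ± 0.13 and Ccnb1 by 0.50 ± 0.12 on the log2 scale, genes of the kinetochore, of cell division and of entry into mitosis. With scaling by totals 6 fell, beside 6.57% of all genes tested. More fell without Ubc9-depleted library 2, as among all genes tested. Few fell without either Ubc9 control library, where fewer of all genes fell too. Most of the 10 lower calls thus rested on having both Ubc9 controls. In H1 TKO cells 0 rose and 0 fell by edgeR, beside 8.59% and 8.43% of all genes tested, with a median of -0.22. At an unadjusted p under 0.05 edgeR had 1 higher and 4 lower, beside 15.9% and 16.4%, and DESeq2 called 2 lower, beside 11.7%. Leaving out either H1 control library raised the calls in both directions, as it did among all genes tested.

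**Figure D4:**
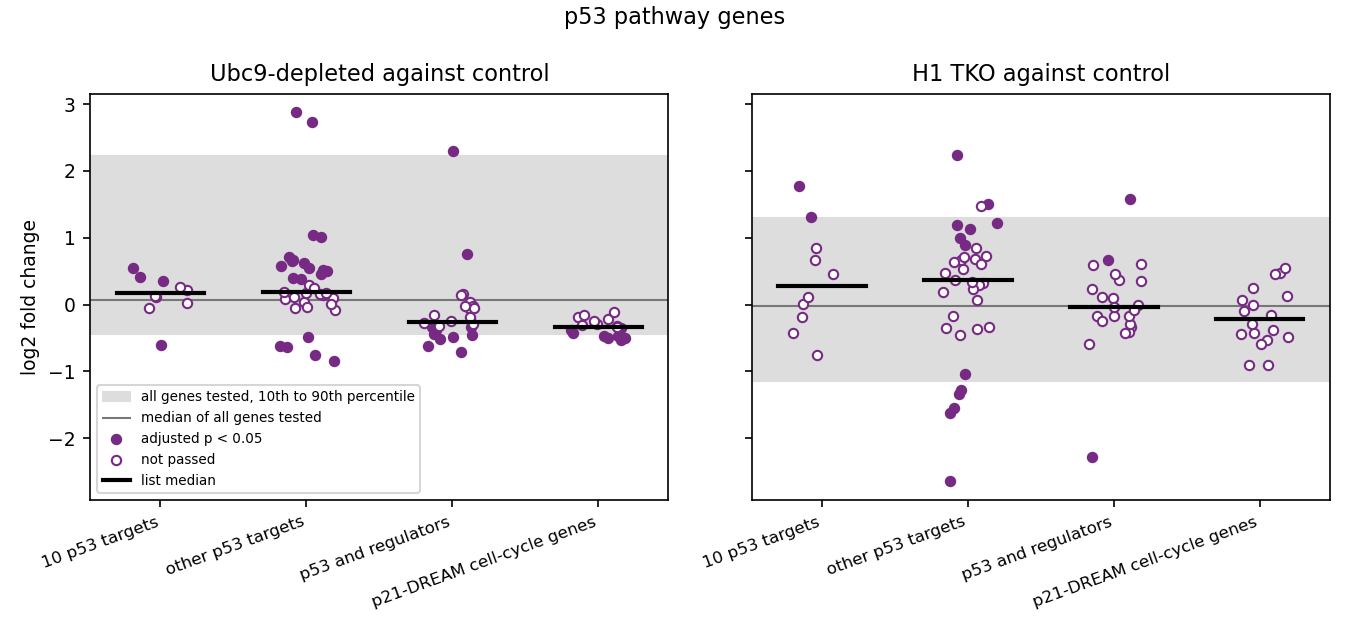
Log2 fold change of every tested gene in 4 groups of p53 pathway genes, after Ubc9 depletion on the left and in H1 TKO cells on the right; filled points have an edgeR adjusted p under 0.05, black bars are group medians, the grey line is the median of all genes tested and the grey band their 10th to 90th percentile. The 10 p53 targets have medians of 0.17 and 0.28, and the cell-cycle genes of -0.34 and -0.22.

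Markers of other cell types differed between some of the groups. Beside the Ubc9 counts that follow, 21.1% of all genes tested rose and 15.0% fell. Summed over 15 fibroblast markers, the Ubc9-depleted libraries held 73.9 and 77.8 CPM and their controls 38.0 and 39.5 CPM, and 9 of 12 tested markers rose and 0 fell (edgeR; 0 also at an unadjusted p under 0.05 and in DESeq2). Summed over 8 primitive endoderm markers, the depleted libraries held 21.6 and 28.9 CPM and the controls 13.2 and 13.4 CPM, and 5 of 7 tested markers rose and 0 fell (edgeR; 0 fell also at an unadjusted p under 0.05 and in DESeq2). The sum of 8 neuroectoderm markers overlapped between the groups, at 24.8 and 32.8 CPM against 29.2 and 31.0 CPM, with 3 of 7 tested markers higher and 1 lower (Tubb3, which held 20.6 and 22.5 CPM of the control sums). In the H1 table the fibroblast markers summed to 23.7 and 27.2 CPM in the knockout and 18.0 and 27.3 CPM in the controls, which overlapped, with 1 of 7 tested markers higher and 1 lower and Postn, Fap and S100a4 at 0 counts in all 4 libraries. Primitive endoderm markers summed to 15.3 and 17.0 CPM against 8.22 and 9.41 CPM, with 1 of 7 tested markers higher (edgeR). That marker, Dab2, held 11.1 and 9.84 CPM against 2.05 and 1.26 CPM, so the higher sum rested on 1 gene. Neuroectoderm markers, of which Nkx2-2 had 0 counts in all 4 libraries, summed to 21.5 and 22.7 CPM against 41.7 and 71.0 CPM. Of 5 tested, 2 were lower (edgeR). Tubb3 held 15.5 and 14.9 CPM of the knockout sums and 32.9 and 65.7 CPM of the control sums, so the lower sum rested on 1 gene as well. Beside the counts of the H1 comparison, 8.59% of all genes tested rose and 8.43% fell. In bulk RNA, fewer cells of a type and less RNA per cell cannot be told apart. Whether cells of other types were present, and any part of them in the values of the p53 target genes, was not tested.

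Among 9212 other genes tested in both comparisons with at least 5 CPM in both tables, those with the pattern most like Cdkn1a over the 8 libraries were Tonsl, Tuba1c and Cbx7. Their Euclidean distances of log2 CPM, centred within each table (0.5 CPM added), were 0.12, 0.14 and 0.17. Those most like Mdm2 were Sesn1, itself on the list of other p53 targets, Fam107b and Psme4, at distances of 0.19, 0.20 and 0.23. Sesn1 had log2 fold changes of 0.09 after Ubc9 depletion and 0.68 in H1 TKO cells, beside 0.21 and 0.67 for Mdm2.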

How the data were processed

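Whole-number counts per gene symbol were deposited by the authors, with 1 table per comparison. The build mm10 and the tools STAR, cutadapt, DESeq2 and HTSeq are listed, without roles or versions, per the submitters' processing notes. Annotation and strand setting of the counting are not stated there. The Ubc9 libraries used ScriptSeq v2 and the H1 libraries Lexogen SENSE V2, per the labels.

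For each comparison, edgeR 4.0.16 (R 4.3.3) was run on its 4 libraries (filterByExpr with a minimum count of 10 and a minimum total of 15, TMM factors, quasi-likelihood F test, Benjamini-Hochberg adjustment over all genes tested, threshold 0.05). The difference between the comparisons was fitted on all 8. SE values were derived from the F statistic. The scripts were tested on simulated counts with 200 changed genes. Alternatives were DESeq2 1.42.0, RLE factors, library totals, no filter, all 8 libraries in 1 fit, a replicate block and leaving out each library, where a lone library is assumed to vary like the other groups. Coordinates are from GENCODE M21 (GRCm38).

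The 10 genes and the lists, written from general knowledge, were chosen with earlier results of these data known. All 10 are named. Of the other lists, the 3 highest and 3 lowest that passed are named, with Trp53, Mdm4, Bbc3, Pmaip1, Usp7 and Cdkn2a whatever their values, and the 3 genes nearest to Cdkn1a and Mdm2, clone-named genes passed over. A check of the labels in the Ubc9 table is not reported here.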

Additional observations from a re-analysis of the deposited data

Results flagged for a closer look

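The log2 fold changes of 2 of the p53 target genes differed between the comparisons in the fit of all 8 libraries. Perp was higher in the Ubc9 comparison than in the H1 comparison by 1.11 ± 0.27 (adjusted p = 0.0201, edgeR), above the controls in both Ubc9-depleted libraries and below them in both H1 TKO libraries. Plk2 was lower in the Ubc9 comparison by 1.25 ± 0.22, a signed difference of -1.25 (adjusted p = 0.0034, edgeR), and was above the controls in the case libraries of both comparisons. The comparisons also differ in cell line and library kit, and the part of these in the differences cannot be told apart from that of Ubc9 and H1.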

How the results depend on the processing

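The log2 fold change of Plk2 in H1 TKO cells and its difference between the comparisons kept their direction and call under each alternative run (10 and 13). Most other calls rested on the choice of libraries, and the cause was not tested. With scaling by library totals, 6 of the 10 genes were higher after Ubc9 depletion, beside 24.1% of all genes tested. In H1 TKO cells 1 was higher, beside 7.66%. Of all genes, 1084 were lower in the Ubc9 comparison and 635 lower in the difference. In that scaling, 78.6% of called genes were higher in the Ubc9 comparison against 58.5% with TMM, and 75.1% against 55.7% in the difference. In the fit of all 8 libraries, 0 of the 10 were higher and 0 lower in the Ubc9 comparison. There 1100 genes (6.48%) were higher and 483 (2.85%) lower, so 69.5% of called genes were higher. In the H1 comparison 3 of the 10 were higher and 1 lower, where 2205 genes (13%) were higher and 2158 (12.7%) lower. DESeq2 gave 1 of the 10 lower in H1, beside 11.7% of all genes, and 3 lower in the difference, where 1775 genes (10.5%) were lower. Without a filter, 1 was lower in H1, where 1895 genes (10.1%) were lower, and 3 in the difference, beside 5.62%. A replicate block gave 4 of the 10 higher and 1 lower in H1, beside 11.7% of all genes for each. It gave 3 lower in the difference, beside 7.76%. Libraries with the same number share only that number, and the correlation of their deviations from the group means was -0.011 in the Ubc9 table and 0.20 in the H1 table.

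Leaving out a library, members called higher ranged from 0 to 4 and genes from 1230 to 8428 higher and 795 to 4610 lower in the Ubc9 comparison (1 of the 10 lower throughout). In the H1 comparison, members ranged from 1 to 5 higher and 0 to 2 lower, and genes from 617 to 3994 and 488 to 4038. In the difference, members ranged from 0 to 2 higher and 1 to 5 lower, and genes from 720 to 3222 and 565 to 2923.

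Directions that turned belonged to values that did not pass with all libraries of the comparison, apart from Trp63. In the Ubc9 comparison Trp53inp1 had -0.00099 (DESeq2), -0.00099 (RLE factors) and -0.0012 (no filter), and Bax 0.14 (totals). On leaving out a library, Mdm2 ran from -0.0088 to 0.34, Trp53inp1 from -0.13 to 0.15, Bax from -0.18 to 0.033, Phlda3 from -0.064 to 0.24, Zmat3 from -0.054 to 0.24 and Trp63 from -0.34 to 3.08. In the H1 comparison Bax had -0.066 (totals) and -0.017 (no filter). On leaving out a library, Cdkn1a ran from -0.47 to 0.19, Trp53inp1 from -0.027 to 1.20, Bax from -0.23 to 0.28, Zmat3 from -0.040 to 0.22 and Mdm4 from -0.82 to 0.37. In the difference Zmat3 had -0.12 (DESeq2), -0.12 (RLE factors) and -0.011 (no filter), and Bax 0.21 (totals). On leaving out a library, Trp53inp1 ran from -1.24 to 0.043, Bax from -0.35 to 0.11 and Zmat3 from -0.16 to 0.14.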
